A study of Mus musculus with 6 samples.

Results

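General capillary endothelial cells (ECs) are described here through 7 marker genes, Gpihbp1, Aplnr, Plvap, Cd93, Kit, Hilpda and Glp1r, which were chosen by name among the 24063 gene symbols counted. The data were bulk RNAseq of ECs taken from C57BL6 lungs of male mice with magnetic beads carrying anti-CD31, in 3 libraries from sham-operated mice and 3 libraries collected 7 days after unilateral pneumonectomy (PNX). PNX took out the left lung, after which the right lung grows, whereas sham mice had the chest opened only. Each library was a pool from 2 mice, and the labels give an age of 8 weeks, while the methods of the study give an older age. All mice were wild type, with no transgene and no drug treatment beyond the anaesthesia of the operation. For this the methods of the study give ketamine and xylazine with mechanical ventilation.

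The alveolar capillary bed is built of a pair of EC types. General capillary cells serve as the progenitors that maintain and repair the bed, and aerocytes are large cells specialised for gas exchange. The 7 genes have different roles: Gpihbp1 handles lipoprotein lipase at the capillary wall, Aplnr, Kit and Glp1r are receptors, Plvap and Cd93 are surface proteins of the vessel wall, and Hilpda coats lipid droplets. None of the 7 is made by general capillary cells alone. Kit also marks mast cells, Plvap and Cd93 are found in other vessels, and Hilpda responds to hypoxia and lipid in many cells.

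Total counts ranged from 29526989 to 81282871 per library and were lowest in replicate 3 of each group. In the sample titles, replicates 1 and 2 of sham and PNX carry a note of re-use and are called the earlier record here. Replicate 3 carries no such note and is called the later record. The titles pair no sham library with a PNX library. Replicates 1 and 2 of a group differed by little more than sampling noise, with a chi-square per degree of freedom of 1.75 in sham and 1.57 in PNX, against 67.9 to 86.4 for pairs that include replicate 3. They were therefore summed and counted as 1 sample, which left 4 samples, 1 earlier and 1 later in each group (n = 2 per group). The endothelial markers were abundant in every sample, with Pecam1, which encodes CD31, at 2523 and 2020 normalised counts (CPM, scaled to library size) in sham against 2461 and 2128 CPM in PNX.

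Promoter stretches of members that were at a lower level in PNX in both records are shown with their ETS core, the GGAA letters that endothelial ETS factors can bind. RefSeq promoters on build GRCm38.p6 were matched for Kit, Hilpda and Glp1r. Each stretch ends at the base before the first annotated start, and GGAA, or TTCC where it lies on the opposite strand, is in capitals.
Kit, chr5:75574737-75574915, + strand: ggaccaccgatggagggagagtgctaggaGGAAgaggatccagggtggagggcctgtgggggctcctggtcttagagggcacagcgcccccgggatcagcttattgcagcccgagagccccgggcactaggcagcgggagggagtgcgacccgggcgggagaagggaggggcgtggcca
Hilpda, chr6:29272238-29272487, + strand: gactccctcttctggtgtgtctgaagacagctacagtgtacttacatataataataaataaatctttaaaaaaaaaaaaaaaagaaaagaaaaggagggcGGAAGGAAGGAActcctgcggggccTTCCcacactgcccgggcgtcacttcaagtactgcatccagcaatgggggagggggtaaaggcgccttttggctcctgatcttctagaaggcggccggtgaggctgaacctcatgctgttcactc
Glp1r, chr17:30901617-30901816, + strand: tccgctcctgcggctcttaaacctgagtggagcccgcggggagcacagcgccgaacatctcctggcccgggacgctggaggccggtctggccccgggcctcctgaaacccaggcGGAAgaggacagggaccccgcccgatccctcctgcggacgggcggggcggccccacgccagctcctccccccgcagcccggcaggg
The Kit stretch held 1 ETS core in 179 bases, that of Glp1r 1 in 200 bases and that of Hilpda 4 in 250 bases. The Hilpda cores lie close together, 3 of them back to back. ETS cores are common, since 96.0% of all 32851 RefSeq windows of 300 bases around a start held at least 1 on either strand. The base composition differed, with a GC content of 75.0% for Glp1r, 69.3% for Kit and 48.4% for Hilpda.

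Other motifs were searched on both strands of the windows of 300 bases. The hypoxia response core ACGTG was found at 1 of the 2 Hilpda starts and at no Kit or Glp1r start, against 19.6% of all windows. An AP-1 site, TGANTCA, was found once at each Hilpda start, against 7.81% of all windows. The Hilpda starts, at 29272488 and 29272626, have overlapping windows, so this can be 1 site seen from both. The KLF box CACCC and the E-box CANNTG were each found once at Glp1r and once at each Kit start, against 57.5% and 72.3% of all windows. The SOX box AACAAT, the forkhead box TGTTTAC, the GATA box AGATAA and TATAAA were found in none of the windows of the 3 genes, against 10.7%, 3.65%, 11.2% and 13.6% of all windows. These are matches of letters and were not measured as binding.

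The members lie on 6 chromosomes of GRCm38 in the GENCODE vM21 annotation, and all are protein coding. Gpihbp1 is at chr15:75596628-75599481, Aplnr at chr2:85136225-85139923, Kit at chr5:75574916-75656722 and Hilpda at chr6:29272488-29275446, all on the plus strand. Glp1r is at chr17:30901817-30940791 on the plus strand, where the minus-strand noncoding genes AC174471.1 and AC165951.1 overlap it. Plvap, at chr8:71497765-71511752 on the minus strand, overlaps Gtpbp3 on the plus strand, and Cd93 is at chr2:148436640-148443563 on the minus strand. The sources used here do not say that counting used strand, so reads of Plvap and Glp1r cannot be told apart from those of their overlapping partners.

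Compared per transcript length, the deposited length-normalised level (TPM) put Plvap first among the 7 genes. Plvap had 941, 960 and 618 TPM in sham replicates 1, 2 and 3 and 585, 599 and 401 TPM in PNX replicates 1, 2 and 3. It was the highest member in 5 of the 6 libraries. In PNX replicate 3, Cd93 was higher, at 407 TPM. By group medians in sham, the order after Plvap was Gpihbp1 (525 TPM), Cd93 (357 TPM), Hilpda (325 TPM), Kit (155 TPM), Glp1r (100.3 TPM) and Aplnr (80.1 TPM). Along this order the ranges of neighbours overlapped for Gpihbp1 with Cd93, Cd93 with Hilpda and Kit with Glp1r, and were apart for the other 3 neighbouring pairs. In PNX the medians kept the same order, with 585 TPM for Plvap, 330.2 TPM for Gpihbp1, 321 TPM for Cd93, 192 TPM for Hilpda, 119 TPM for Kit, 65.0 TPM for Glp1r and 57.4 TPM for Aplnr. There only the ranges of Gpihbp1 and Cd93 overlapped among neighbours.

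**Figure D1:**
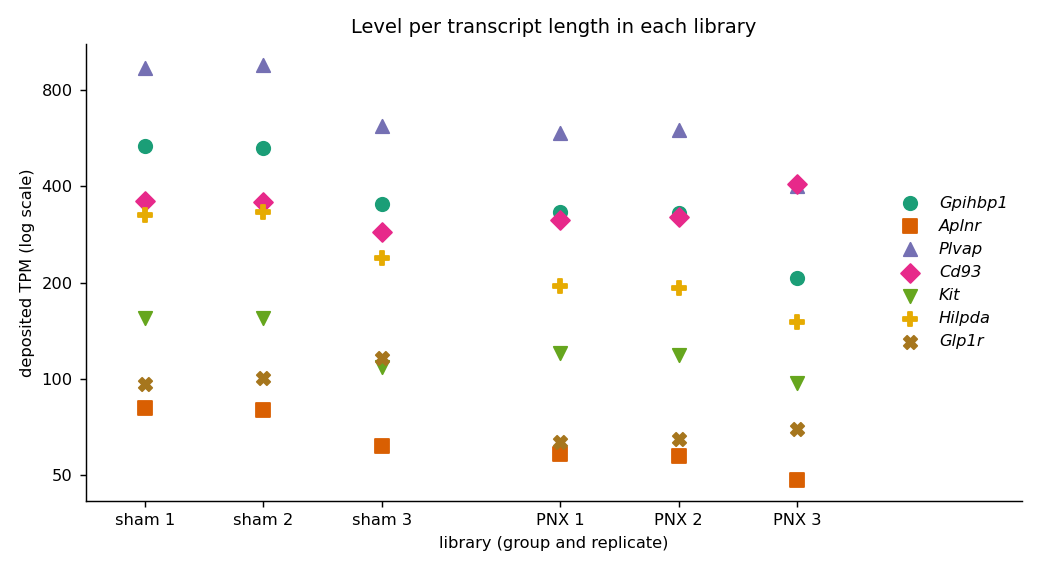
Deposited TPM of each general capillary marker gene (y axis, log scale) in each of the 6 libraries (x axis). Each symbol is 1 gene in 1 library, and Plvap is the highest in 5 of 6 libraries, while Cd93 (407 TPM) and Plvap (401 TPM) nearly coincide in PNX replicate 3.

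Relative to sham, 6 of the 7 genes had a lower fitted level in PNX and 1, Cd93, a higher one. In the 4 samples without a block, 0 of 7 passed the test (edgeR, adjusted p under 0.05), nor did any other gene (0.0%). With a replicate block, which compares PNX with sham within the earlier and within the later record, 5 of 7 fell: Gpihbp1, Hilpda, Glp1r, Plvap and Aplnr. Of all genes tested, 10.1% fell in that fit. The median log2 fold change of the 7 genes was -0.65 without the block, against -0.014 over the 16598 genes tested. In bulk RNA, fewer general capillary cells and less of these RNAs per cell cannot be told apart.

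Gpihbp1 encodes a glycolipid-anchored protein that carries lipoprotein lipase to the luminal face of capillaries. It had 169 CPM in the earlier and 112 CPM in the later sham sample, and 106 and 65.5 CPM in the corresponding PNX samples. Both PNX samples were below both sham samples, and within each record the PNX sample was the lower one. The group means were 140 ± 40.4 CPM in sham and 85.8 ± 28.7 CPM in PNX (SD, n = 2). The log2 fold change was -0.71 (SE 0.32, adjusted p = 0.476, edgeR) without the block and -0.72 (SE 0.08, adjusted p = 0.00126, edgeR) with it.

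Hilpda encodes a small protein of lipid droplets that restrains the lipase Pnpla2. It had 242 and 175 CPM in the earlier and later sham samples and 144 and 110 CPM in the PNX samples. The groups did not overlap, and the difference was similar in size within both records, at -0.75 and -0.67 on the log2 scale. The means were 209 ± 47.5 CPM in sham and 127 ± 23.6 CPM in PNX (SD, n = 2). In the fits, the log2 fold change was -0.72 (SE 0.23, adjusted p = 0.323, edgeR) without and -0.71 (SE 0.08, adjusted p = 0.00157, edgeR) with the block. Hilpda and Kit each have 2 transcripts with nearly equal counts in every library, so their summed counts hold most reads more than once and their CPM is not to be compared with that of the other members.

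Glp1r encodes the receptor for glucagon-like peptide 1, which couples to cyclic AMP. It was the one member whose later sample exceeded the earlier sample in both groups, with 58.2 and 68.4 CPM in sham against 38.2 and 41.0 CPM in PNX. The PNX samples lay below both sham samples. The means were 63.3 ± 7.19 CPM in sham and 39.6 ± 2.03 CPM in PNX (SD, n = 2). The log2 fold change was -0.68 (SE 0.15, adjusted p = 0.177, edgeR) without and -0.67 (SE 0.08, adjusted p = 0.00204, edgeR) with the block.

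Plvap encodes the protein that forms the diaphragms of caveolae and fenestrae. It had 766 and 496 CPM in sham against 479 and 322 CPM in PNX, in the earlier and later samples. The highest PNX value lay only just below the lowest sham value, since the earlier and later samples of 1 group differed about as much as PNX and sham did. The difference was -0.68 within the earlier and -0.62 within the later record on the log2 scale. The means were 631 ± 191 CPM in sham and 401 ± 111 CPM in PNX (SD, n = 2). Its log2 fold change was -0.65 (SE 0.31, adjusted p = 0.498, edgeR) without and -0.65 (SE 0.10, adjusted p = 0.00434, edgeR) with the block.

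Aplnr encodes the apelin receptor, a G protein-coupled receptor. It had 115 and 87.4 CPM in sham against 82.7 and 68.5 CPM in PNX, in the earlier and later samples. The groups did not overlap, but the differences were smaller than those of the 4 genes above, at -0.48 in the earlier and -0.35 in the later record. The means were 101 ± 19.6 CPM in sham and 75.6 ± 9.99 CPM in PNX (SD, n = 2). PNX differed from sham by a log2 fold change of -0.42 (SE 0.20, adjusted p = 0.494, edgeR) without and -0.42 (SE 0.08, adjusted p = 0.0123, edgeR) with the block.

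Kit encodes the receptor tyrosine kinase for stem cell factor. It had 641 and 447 CPM in sham against 498 and 400.2 CPM in PNX, in the earlier and later samples. The PNX samples were lower within each record, but the earlier PNX sample was above the later sham sample, so the groups overlapped. Its log2 fold change was -0.28 (95% interval -0.91 to 0.35, adjusted p = 0.736, edgeR) without and -0.26 (95% interval -0.51 to -0.02, adjusted p = 0.118, edgeR) with the block. A change of up to about the size seen for Gpihbp1 therefore lies within the interval without the block, but not within that of the blocked fit. The value without the block was -0.13 without PNX replicate 3 and -0.50 without sham replicate 3.

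Cd93 encodes a transmembrane protein of the C-type lectin domain group 14 family that binds the matrix protein Mmrn2. It had 952 and 759 CPM in sham against 847 and 1077 CPM in PNX, in the earlier and later samples. The direction differed between the records, with PNX lower by 0.17 on the log2 scale in the earlier and higher by 0.50 in the later record. The log2 fold change was 0.17 (95% interval -0.39 to 0.73, adjusted p = 0.829, edgeR) without and 0.17 (95% interval -0.22 to 0.56, adjusted p = 0.513, edgeR) with the block. The fitted value was -0.012 without PNX replicate 3 and 0.027 without sham replicate 3, so its size rests on the later record.

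**Figure D2:**
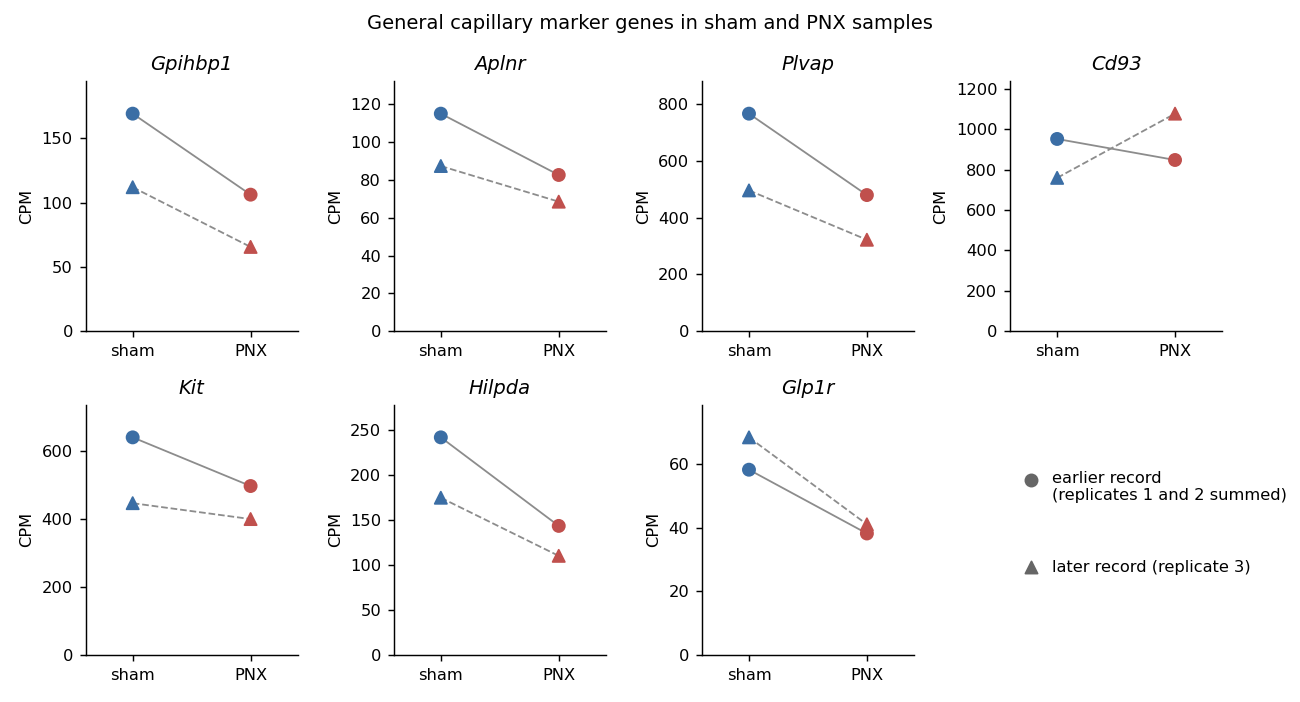
CPM (y axis, from 0) of the 7 general capillary marker genes in the sham and PNX samples (x axis), with circles for the earlier record and triangles for the later record and lines joining samples of the same record. Both lines slope down from sham to PNX in 6 panels, and in Cd93 they cross, from 952 to 847 CPM and from 759 to 1077 CPM.

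Counted over the 7 genes, both PNX samples lay below both sham samples for 5, against 21.2% of all genes tested, and the level was lower in both records for 6, against 39.3% of all genes. By single library, all 3 PNX libraries lay below all 3 sham libraries for the same 5 genes, against 17.9% of all genes. With 2 samples against 2, an exact permutation test of 1 gene cannot give a two-sided p below 0.333, and with 3 libraries against 3 not below 0.1. The edgeR fit without the block called 0.0% of all genes tested at an adjusted p under 0.05, 0 of them members. At an unadjusted p under 0.05, that fit had 12.5% of all genes and 2 members, Hilpda and Glp1r. On the same 4 samples, DESeq2 called 889 genes and limma-voom 0, and both called 0 members. The blocked fit called 21.6% of all genes in either direction and 10.1% as lower, beside 5 of 7 members as lower. At the thresholds of the study, an adjusted p under 0.01 with an absolute log2 fold change above 1, the blocked fit called 5.12% of all genes and 0 members, since no member reached that size of change.

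The study's own design, DESeq2 on the 6 libraries as separate replicates, called 5 of 7 members lower at an adjusted p under 0.05, against 8.95% of all genes. These were Glp1r (adjusted p = 3.87e-07), Hilpda (adjusted p = 0.00159), Aplnr (adjusted p = 0.0372), Plvap (adjusted p = 0.0449) and Gpihbp1 (adjusted p = 0.0477). edgeR on the 6 libraries without the block called 2 of 7 lower, Glp1r (adjusted p = 0.0101) and Hilpda (adjusted p = 0.0418), against 5.12% of all genes. Both fits treat replicates 1 and 2 as separate samples.

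**Figure D3:**
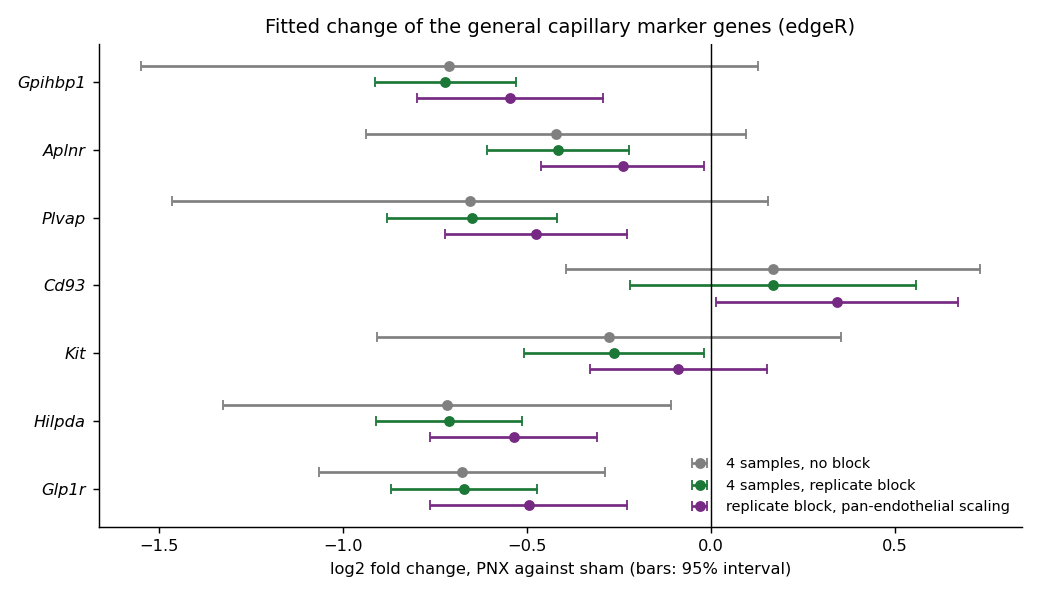
Fitted log2 fold change of PNX against sham (x axis) for each general capillary marker gene (y axis) in 3 edgeR fits on 4 samples, with bars for the 95% interval. The points of the fits without and with the replicate block nearly coincide, from -0.72 for Hilpda or Gpihbp1 to 0.17 for Cd93, while the block narrows the bars, and the pan-endothelial scaling moves all 7 points to the right.

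The 12 pan-endothelial genes, listed as markers of ECs in general, were used as a reference level in each sample. Their geometric mean was 596 and 474 CPM in the earlier and later sham samples and 495 and 449 CPM in the PNX samples, a log2 difference of -0.27 in the earlier and -0.08 in the later record. In the blocked fit 1 of the 12 fell, Tek, and 11 did not pass. Without the block their log2 fold changes ran from -0.52 to 0.30, so the mean also reflects how single genes of the list moved. When samples were scaled to this mean, which moves the median of all genes by 0.17 on the log2 scale, 4 of 7 members still passed as lower in the blocked fit, against 2.9% of all genes. These were Gpihbp1 (log2 fold change -0.55, adjusted p = 0.0143), Hilpda (-0.54, adjusted p = 0.0103), Glp1r (-0.50, adjusted p = 0.0246) and Plvap (-0.48, adjusted p = 0.0219). Aplnr no longer passed (-0.24, adjusted p = 0.120), nor did Kit (-0.09, adjusted p = 0.577) or Cd93 (0.34, adjusted p = 0.131).

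The 9 aerocyte markers did not share the median of the general capillary markers. In the blocked fit 0 rose and 4 of 9 fell, Fibin (log2 fold change -0.72), Ednrb (-0.60), Apln (-0.38) and Chst1 (-0.32), and the median of the list was -0.09, against -0.65 for the general capillary genes. Car4, the carbonic anhydrase that marks aerocytes, was at 283 and 224 CPM in sham against 327 and 311 CPM in PNX (adjusted p = 0.0526, edgeR with the block). After pan-endothelial scaling 2 aerocyte markers were higher and 2 lower. Over all 16598 genes tested, 2657 were then higher and 482 lower, against 1912 and 1672 before this scaling. The difference between the marker lists was not tested.

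The genes that act with each member were also compared in the blocked fit, since none of them passed without the block. Of all 16598 genes tested, that fit called 1912 higher and 1672 (10.1%) lower. Lists with 1 gene called each way, the caveola, lectin and incretin lists, are therefore not read as a result about those genes. Of the 12 lipoprotein lipase genes tested, 3 rose and 1 fell. Fabp4 (log2 fold change 1.05) and Fabp5 (0.66), which bind fatty acids inside cells, and Angptl4 (0.58), an inhibitor of the lipase, rose, and the fatty acid transporter Cd36 (-0.58) fell, of which Cd36 no longer passed after pan-endothelial scaling. Lpl, the lipase that Gpihbp1 carries, was at 247 and 347 CPM in sham against 239.6 and 300.4 CPM in PNX and did not pass (adjusted p = 0.384, edgeR with the block). Of the 6 apelin axis genes tested besides Aplnr, 0 rose and 3 fell, among them the flow-responsive factor Klf2 (-0.49) and the ligand Apln (-0.38). After pan-endothelial scaling 1 gene of this list was higher and 0 lower. The second ligand of Aplnr, Apela, had 4 counts over all libraries and was not tested.

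Of the 7 caveola genes that act beside Plvap, 1 rose, Cavin3 (log2 fold change 0.80), and 1 fell, Cav2 (-0.52), while Cav1, the main coat protein, was at 2719 and 1807 CPM in sham against 2210 and 1599 CPM in PNX (adjusted p = 0.219, edgeR with the block). Of the 7 genes grouped with Cd93, 1 fell, Clec14a (-0.78), a lectin of the same family on ECs, and 1 rose, Cd248 (1.85), a family member of stromal cells. After pan-endothelial scaling, 3 caveola genes were higher and 0 lower, and 3 lectin group genes were higher and 1 lower. That scaling moves the median of all genes up by 0.17 on the log2 scale. Genes that pass as higher only after it are therefore not particular to a list. The Cd93 ligand Mmrn2 stayed between 99.98 and 107 CPM in the 4 samples. Of the 9 genes of the stem cell factor axis 0 passed in either direction (1 higher after pan-endothelial scaling), among them the ligand Kitl, at 396 and 220 CPM in sham against 340.3 and 199 CPM in PNX (adjusted p = 0.194, edgeR with the block).

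Of the 15 lipid droplet and hypoxia genes set beside Hilpda, 3 rose and 5 fell. Those that fell were G0s2 (log2 fold change -0.57), which like Hilpda inhibits Pnpla2, Pnpla2 itself (-0.37), Bnip3 (-0.57), Epas1 (-0.55), which encodes HIF-2 alpha, and Vegfa (-0.48). Those that rose were Egln3 (1.94), a hydroxylase that marks HIF proteins for decay, Hif1a (0.43) and Ndrg1 (0.38). After pan-endothelial scaling the 3 were still higher, and of the 5 only G0s2 was lower. Of the 8 incretin genes tested beside Glp1r, 1 fell, Dpp4 (-0.48), the peptidase that inactivates glucagon-like peptide 1, and 1 rose, Gipr, which was at or below 0.339 CPM in every sample. Dpp4 no longer passed after pan-endothelial scaling (adjusted p = 0.0668, edgeR with the block). Gcg, the gene of the Glp1r ligand, had 1 count over all libraries.

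**Figure D4:**
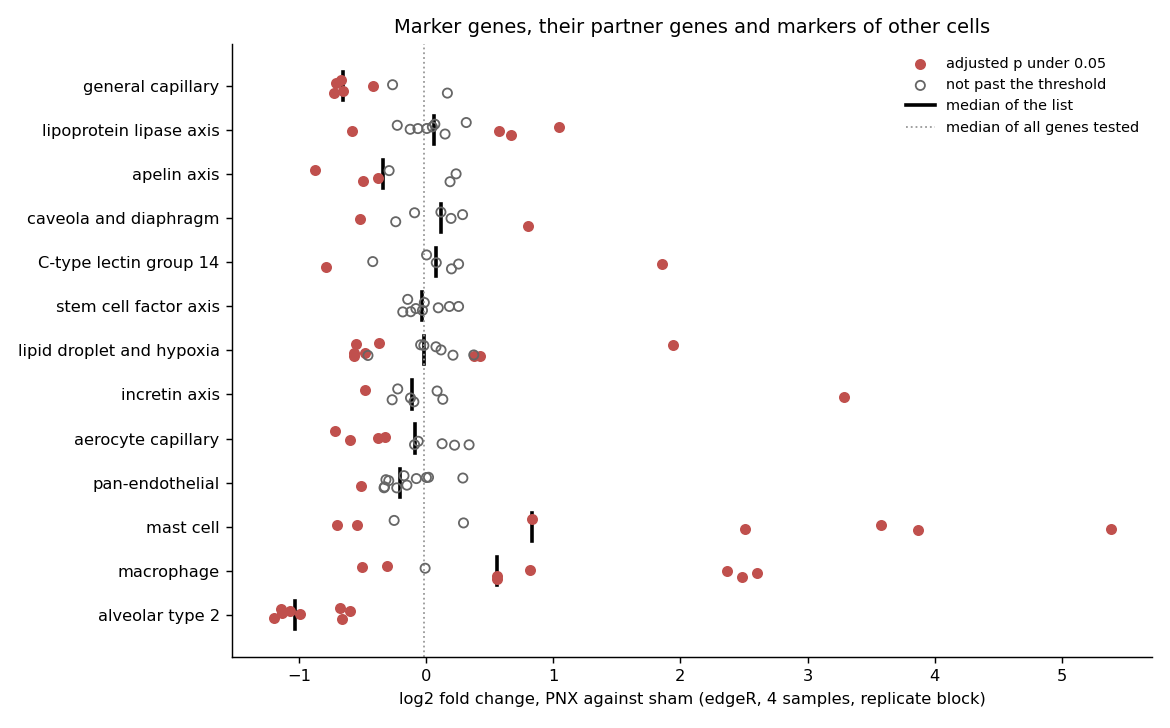
Log2 fold change of PNX against sham in the edgeR fit with the replicate block (x axis) for each gene of 13 lists (y axis), filled where the adjusted p was under 0.05, with a black bar at the median of the list and a dotted line at the median of all genes tested. The general capillary genes lie mostly left of the dotted line with a median of -0.65, and the alveolar type 2 genes lie further left, with a median of -1.03. The medians of the lipoprotein lipase, caveola, lectin, stem cell factor and lipid droplet lists lie between -0.03 and 0.12. Those of the apelin, pan-endothelial, incretin and aerocyte lists lie at -0.34, -0.20, -0.11 and -0.09. Those of the macrophage and mast cell lists lie at 0.56 and 0.83.

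Markers of other cells that a CD31 bead preparation can hold moved between the groups as well in the blocked fit, and their part in the values of the 7 genes was not tested. The 8 alveolar type 2 markers all fell (5 of 8 after pan-endothelial scaling), and their summed level was 5449 and 5857 CPM in sham against 3466 and 2100.0 CPM in PNX. Of the 9 macrophage markers 6 rose and 2 fell, with sums of 2407 and 4209 CPM in sham against 3076 and 4068 CPM in PNX. Of the 8 fibroblast markers 5 rose and 1 fell, with sums of 1227 and 1496 CPM in sham against 3082 and 3757 CPM in PNX. Of the 8 leukocyte markers 1 rose and 4 fell, with sums of 723 and 1545 CPM in sham against 890.3 and 1427 CPM in PNX. Of the 7 innate lymphoid markers 1 rose and 2 fell, with sums of 114 and 152 CPM in sham against 240.5 and 184 CPM in PNX. The one that rose, Arg1, was at 1.30 and 4.92 CPM in sham against 146 and 71.5 CPM in PNX, which exceeds the difference between the sums. Of the 5 adipocyte markers tested 4 rose and 1 fell, with sums of 30.0 and 55.6 CPM in sham against 39.8 and 43.2 CPM in PNX. Most of these sums was Cidec, the one that fell, at 29.6 and 55.1 CPM in sham against 25.1 and 39.4 CPM in PNX. Among those that rose, Cfd was at 0.213 and 0.0589 CPM in sham against 11.6 and 1.08 CPM in PNX. Adipoq was at 0.0133 and 0 CPM in sham against 1.25 and 0.576 CPM in PNX. After pan-endothelial scaling the macrophage list had 6 higher and 0 lower, the fibroblast list 5 and 0, the leukocyte list 1 and 3, the innate lymphoid list 1 and 1, and the adipocyte list 4 and 0. With this scaling, 2657 of all 16598 genes tested were higher and 482 lower.

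Mast cells also carry Kit. Of the 9 mast cell markers 5 rose and 2 fell (5 and 1 after pan-endothelial scaling), and their summed level, most of it Gata2, was 251 and 248 CPM in sham against 178 and 209 CPM in PNX. Gata2 was among those that fell, at 210 and 159 CPM in sham against 133 and 118 CPM in PNX. In each record this exceeds the difference between the sums, so the lower sums follow Gata2. The 5 that rose were the protease genes Cpa3, Cma1, Mcpt4, Tpsab1 and Tpsb2. Of these, Cma1 was at 0.406 and 0.383 CPM in sham against 4.05 and 6.47 CPM in PNX. Tpsb2 was at 0.0399 and 0.177 CPM in sham against 2.28 and 5.29 CPM in PNX. Cpa3 was at 3.35 and 4.33 CPM in sham against 5.10 and 9.28 CPM in PNX. Hdc, the histamine-forming enzyme, was at 33.2 and 75.3 CPM in sham against 29.4 and 60.0 CPM in PNX. The part of mast cells in the Kit values was not tested. Among other vessel types, 0 of 8 arterial markers rose and 2 fell, Hey1 and Efnb2, 1 of 7 venous markers rose, Ackr1, and of 6 lymphatic markers tested Prox1 and Pdpn rose and Lyve1 fell. After pan-endothelial scaling the arterial list had 1 higher and 2 lower, the venous list 2 and 0, and the lymphatic list 3 and 0, where Lyve1 no longer passed. The lymphatic chemokine gene Ccl21a had 1 count over all libraries.

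The later samples differed from the earlier ones in the members themselves. In sham, the later sample was lower for 6 members, by between 0.33 on the log2 scale for Cd93 and 0.63 for Plvap, and higher by 0.23 for Glp1r. In PNX, it was lower for 5 members, by between 0.27 for Aplnr and 0.70 for Gpihbp1, and higher by 0.35 for Cd93 and by 0.10 for Glp1r. For Kit the difference between the records was larger than that between PNX and sham. Counting error at the lowest count of a member was between 0.623% for Cd93 and 2.87% for Glp1r, so depth did not limit these values.

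Patterns over the 4 samples were compared as the root mean square difference of centred log2 CPM, over 9879 other genes with a mean of at least 10 CPM. The member most like Gpihbp1 was Plvap, at 0.0577, which ranked 9th of all genes. In turn, Gpihbp1 ranked 12th for Plvap, and Plvap ranked 35th for Hilpda. For Aplnr the nearest member was Kit, ranked 242nd, and for Glp1r it was Aplnr, ranked 1706th. No member was near Cd93, for which Kit, the closest, ranked 7138th. The closest genes of all were Mtcl1 and Bend7 for Gpihbp1, Eps8l2 and Slfn5 for Plvap, Bmpr2 and Grb14 for Hilpda, Nrp1 for Aplnr, Fbxo9 and Ankrd12 for Kit, Cd300lg and Gpr155 for Glp1r, and Heg1 and Tll1 for Cd93. Among these, Bmpr2, Nrp1, Heg1 and Cd300lg are known from ECs. With 4 samples, such likeness is a description of these libraries.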

How the data were processed

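RNA of mouse lung ECs was sequenced by the authors as stranded, paired-end libraries and aligned to mm10. STAR is listed in the submitters' processing notes without a version, and reads were counted on the Basepair platform by a rule that is not given in the sources used here. For each of 33068 RefSeq transcripts the authors deposited a whole-number count, an FPKM and a TPM value. The deposited FPKM was not used, and the deposited TPM was used for levels only.

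Counts were summed per symbol, so reads shared by transcripts may count more than once. Replicates 1 and 2 were summed per group on the chi-square comparison over symbols that have a single transcript and a pair total of 20 counts or more. The test was edgeR 4.0.16 (R 4.3.3, with TMM scaling, filterByExpr, glmQLFit, glmQLFTest, Benjamini-Hochberg over 16598 genes), without a block unless stated. Alternatives were DESeq2 1.42.0, limma 3.58.1, other scalings, filters and sample sets, and the replicate block. The record was used as the block in the fits on 4 samples, although the sample titles do not pair sham with PNX libraries. In the blocked fit on 6 libraries the block was the replicate number, a pairing that the titles do not state either. Over 9880 genes the later minus earlier difference in sham correlated with that in PNX (r = 0.802 by Pearson, rho = 0.797 by Spearman, across genes, which are not independent). The blocked fit has 1 residual degree of freedom per gene. The standard error is the log2 fold change divided by the square root of F. CPM uses TMM-scaled totals.

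The members and lists were chosen with earlier results of these data known. Genes named beside the members are those of a list with an adjusted p under 0.05 in the blocked fit, at most the 4 largest changes, the most abundant gene, and the 2 genes nearest in pattern to each member. Apela, Car4, Ccl21a, Cpa3, Gcg, Hdc, Hif1a, Kitl, Lpl, Mmrn2, Ndrg1 and Pnpla2 lie outside that rule and were named after their values were seen. Some genes that the rule names are not reported here. Older symbols were matched through RefSeq synonyms (Cavin3 as Prkcdbp). The fits were tested on simulated counts. These were drawn with the same record difference in sham and PNX, so they cannot test the pairing that the block assumes. Whether the samples came from separate mice beyond the pools of 2 is not stated, so p-values measure the spread between these samples only.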

Additional observations from a re-analysis of the deposited data

Results flagged for a closer look

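Cd93 moved in opposite directions in the earlier and later records. The log2 difference of PNX minus sham was -0.17 in the earlier and 0.50 in the later record, and with 1 sample of each group in a record this difference was not tested.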

How the results depend on the processing

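Without the replicate block, edgeR called 0 genes at the thresholds of the study, and it did so under every other scaling and both transcript choices. DESeq2 on 4 samples called 587 genes, 498 higher and 89 lower. The replicate block called 849 (645 higher, 204 lower), the 6 libraries 409 without and 920 with the block, DESeq2 on the 6 libraries 927, and replicates 1 and 2 alone 1203. At an adjusted p under 0.05 the counts were 889, 3584, 2148, 6847, 3469 and 10432 in the same order, and 255 with no filter on low counts. Leaving out 1 library without the block gave 0 to 2 genes at the thresholds of the study and 0 to 204 at an adjusted p under 0.05, the highest without sham replicate 3 (109 without PNX replicate 3).

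Chosen after seeing the data, the block with another setting called 624 genes with DESeq2's size factors (540 higher, 84 lower), 646 with upper-quartile scaling, 629 with library size alone (550 higher, 79 lower), 773 with pan-endothelial scaling (734 higher, 39 lower), 643 with identical transcripts counted once, 816 in DESeq2 and 921 in limma-voom. At an adjusted p under 0.05 these were 3196, 3360, 3259, 3139 (2657 higher and 482 lower, against 1912 and 1672 with TMM), 3311, 2518 and 4091. With the block and without sham replicate 1, sham replicate 2, PNX replicate 1 or PNX replicate 2, it called 671, 668, 485 and 863 genes, and 3098, 3421, 2822 and 3552 at an adjusted p under 0.05.

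Members called at an adjusted p under 0.05 were 0 in edgeR on 4 samples without the block, 5 with the block, 2 and 6 with 6 libraries without and with the block, 5 with DESeq2 on 6 libraries and 7 with replicates 1 and 2 alone, which lack the spread between records. The block with the other settings called 5, except 4 with pan-endothelial scaling, and 5 also with 1 library left out. The median log2 fold change of the members stayed between -0.66 and -0.40 in all alternatives, and was -0.40 without PNX replicate 3 and -0.59 without sham replicate 3. Gpihbp1 moved to -0.40 and -0.96, Plvap to -0.40 and -0.92 and Kit to -0.13 and -0.50 in these fits, which set 1 record against both. Cd93 reversed to -0.012 without PNX replicate 3 and to -0.14 with replicates 1 and 2 alone, and was 0.027 without sham replicate 3 and at most 0.18 without another library. The other 6 members stayed below 0 in all 32 alternatives. No blocked fit without replicate 3 of a group could be made, since it leaves the later record with 1 group.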
